A study of Mus musculus with 8 samples.

Results

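Cxcl9, Cxcl10 and Cxcl11, the ligands of the chemokine receptor CXCR3, were followed through resting and stimulated mouse macrophages. The 3 genes were found by matching their Ensembl identifiers to mouse symbols, and each of them had 1 line among the 36806 gene lines of every table. The rule that picks them uses no measured value, but the members were chosen with earlier results of these data known. Poly(A) RNA was sequenced from bone marrow-derived macrophages of C57BL/6 mice on day 7 of differentiation in medium conditioned by L929 cells, a fibroblast line that supplies macrophage growth factor. Of the cultures, 7 received 1 stimulus each for 4 h, and the remaining one was untreated. Interferon gamma (IFNg) was given at 100 ng/ml. The interleukins IL4 and IL1b and tumour necrosis factor alpha (TNFa) were given at 10 ng/ml. Transforming growth factor beta (TGFb1) and the mycoplasma lipopeptide MALP2 were given at 1 ng/ml, and CpG DNA at 100 nM. Each of the 8 groups holds 1 library, so no difference below has a replicate check, no p-value was computed, and the number of mice behind a library is not given. Each stimulus was tried at 1 dose.

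The 3 genes encode small secreted CXC chemokines that attract activated T cells and natural killer cells through CXCR3. Interferon gamma induces all of them, and Cxcl10 is also known to answer type I interferon and NF-kB signals. Macrophages are a main source of these chemokines at sites of T cell recruitment. Cxcl9 is the classical monokine induced by interferon gamma, Cxcl10 the interferon-inducible protein IP-10, and Cxcl11 the interferon-inducible T cell chemoattractant. In C57BL/6 mice a shifted reading frame is known to leave Cxcl11 without a full-length protein, and the GENCODE M21 annotation lists the gene as a polymorphic pseudogene, so its values describe RNA.

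The 3 genes lie side by side on chromosome 5. In the files' mm9 coordinates Cxcl9 (ENSMUSG00000029417) covers 92750357 to 92757105. Cxcl10 (ENSMUSG00000034855) and Cxcl11 (ENSMUSG00000060183) carry the merged interval 92760853 to 92843654 that they share with Art3, a gene of the ADP-ribosyltransferase family. In the GRCm38 annotation all 3 chemokine genes are on the minus strand, and the plus-strand gene Art3 (92331827 to 92414628) contains Cxcl10 (92346638 to 92348889) and Cxcl11 (92359544 to 92365485). Of the 2252 exonic bases of Cxcl10, 133 (5.91%) also belong to Art3 exons, and the library protocol in the labels does not mark strand. Art3 itself was at 0.996 FPKM after IFNg, 0.0319 FPKM after TGFb1, and listed at 0 after each of the other stimuli, against 0.0489 FPKM in untreated cells of the IFNg table. Reads from the shared bases cannot be assigned to a strand.

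The promoters of Cxcl9 and Cxcl10 are shown because these neighbouring genes gave different responses to the same stimuli. The set of RefSeq (GRCm38.p6) promoters at hand held 2 of the 3 genes, Cxcl9 and Cxcl10. Each sequence runs from 250 bases before to 50 bases after the start of the gene, 5′ to 3′ on the minus strand, at chr5:92328030-92328329 for Cxcl9 and chr5:92348840-92349139 for Cxcl10. Capitals mark matches to the motifs that were searched on both strands.
Cxcl9: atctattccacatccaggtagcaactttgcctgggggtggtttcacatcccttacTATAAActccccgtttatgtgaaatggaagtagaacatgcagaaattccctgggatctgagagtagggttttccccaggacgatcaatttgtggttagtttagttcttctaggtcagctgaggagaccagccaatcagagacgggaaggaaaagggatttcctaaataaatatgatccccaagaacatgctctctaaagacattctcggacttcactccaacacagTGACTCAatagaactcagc
Cxcl10: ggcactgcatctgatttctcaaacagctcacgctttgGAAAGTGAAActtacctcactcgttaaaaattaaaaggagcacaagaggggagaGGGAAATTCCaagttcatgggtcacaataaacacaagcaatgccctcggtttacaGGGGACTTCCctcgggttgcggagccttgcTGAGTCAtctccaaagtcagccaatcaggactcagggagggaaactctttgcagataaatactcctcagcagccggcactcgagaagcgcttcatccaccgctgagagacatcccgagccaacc
The search covered an interferon-stimulated response element (ISRE, GAAA and GAAA with any 2 bases between), the gamma-activated site (GAS, TTCNNNGAA), the wider-spaced site favoured by STAT6 (TTC and GAA with any 4 bases between), the NF-kB site (GGG and TTCC with any 3 bases between), the AP-1 site (TGANTCA) and the TATA box (TATAAA). Cxcl10 held 1 ISRE match at -213 to -204, 2 NF-kB matches at -159 to -150 and -104 to -95, and 1 AP-1 match at -74 to -68, counted from the start of the gene. Cxcl9 held 1 match to the TATA letters at -195 to -190 and 1 AP-1 match at 32 to 38. A match to letters does not show that a site is used, and the place of the TATA letters was not tested. Sites that depart from the searched letters or their spacing are not marked, so a window without a match may still hold such a site. Neither window held a match to the GAS or the STAT6-type letters, and none of the matches overlapped another. Of 32851 mouse promoter windows of this length, 3.44% held the ISRE, 8.30% the GAS, 6.95% the STAT6-type, 5.56% the NF-kB, 7.81% the AP-1 and 13.6% the TATA letters.

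Expression is given as FPKM (fragments per kilobase of transcript, scaled to library size), with the lower and upper confidence bounds that the authors deposited in parentheses. These bounds are wider than counting error for well expressed genes, and the file headers do not state their level. All 7 comparisons use the same untreated library, so they are not independent of each other. A change is log2 of (stimulated FPKM + 1) over (untreated FPKM + 1), which understates the change of genes under a few FPKM. A gene is counted as higher or lower when it reaches 1 FPKM in either library and differs at least 2-fold on that scale. Macrophage identity was checked on 10 marker genes, of which 9 or 10 reached 1 FPKM in every library, and the tenth, Lyz2, was listed at 0 in 5 libraries with a status other than OK. The T and NK cell markers summed to 10.8 FPKM in the IFNg library, of which Lck was 10.6 FPKM, against 0.911 to 1.88 FPKM in the other 7 libraries, while Cd3e, the defining T cell gene, reached at most 0.0277 FPKM. The gene for interferon gamma itself, Ifng, was listed at 0 in 7 libraries and stood at 0.0170 FPKM after TNFa. Dendritic cell markers summed to 12.3 FPKM after IFNg and 4.34 to 9.95 FPKM after the other stimuli, against 3.58 FPKM in untreated cells. Stromal and endothelial markers summed to 153 FPKM after IFNg and 72.7 to 80.3 FPKM after the others, against 82.4 FPKM in untreated cells, and neutrophil markers to 144 (IL4) to 393 FPKM (IFNg), against 249 FPKM in untreated cells. The B cell markers summed to 15.8 to 30.8 FPKM in the stimulated libraries, against 125 FPKM in the untreated one. The FPKM that stood for a single read was 2.04 times the untreated value after IFNg and 1.04 to 1.44 times the untreated value after the other stimuli. The part of these differences in the results below was not tested. In bulk RNA, fewer cells expressing a gene and less RNA per cell cannot be told apart.

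After IFNg all 3 genes were far above untreated cells. Cxcl9 was at 655 FPKM (175 to 1135.2) after IFNg, against 0.129 FPKM (0.0535 to 0.205) in untreated cells. Cxcl10 was at 7163.2 FPKM (680 to 13646.6) after IFNg, against 25.5 FPKM (11.8 to 39.2) in untreated cells. Cxcl11 was at 83.0 FPKM (29.0 to 137) after IFNg, against 0.0299 FPKM (0 to 0.0696) in untreated cells. The bounds of the 2 libraries lay apart for each gene. The log2 changes were 9.18 for Cxcl9, 8.08 for Cxcl10 and 6.35 for Cxcl11, that is 581-fold, 271-fold and 81.5-fold on the FPKM + 1 scale. Among 12813 compared genes, Cxcl9 had the 7th highest change, Cxcl10 the 14th and Cxcl11 the 32nd. Thus 3 of 3 members were counted higher, beside 10.7% of all compared genes, and for 3 of 3 the bounds lay apart on the higher side, beside 6.58% of all compared genes. Cxcl9 and Cxcl11, under 1 FPKM in untreated cells, passed the floor only through the IFNg library, so they could not have been counted lower. The authors' deposited table called all 3 significant, beside 17.3% of the genes it tested. On plain FPKM the ratios were 5079.2 for Cxcl9, 2777.9 for Cxcl11 and 281 for Cxcl10, so Cxcl11 passed Cxcl10 without the added 1 FPKM. The order of the folds thus turns on the added 1 FPKM, and on the untreated level as well as the stimulated one. Cxcl10 started from the highest resting level and still reached the highest absolute level, 8th among 31425 named genes of the library. Its bounds after IFNg were wide, at 0.905 times the value on either side.

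**Figure D1:**
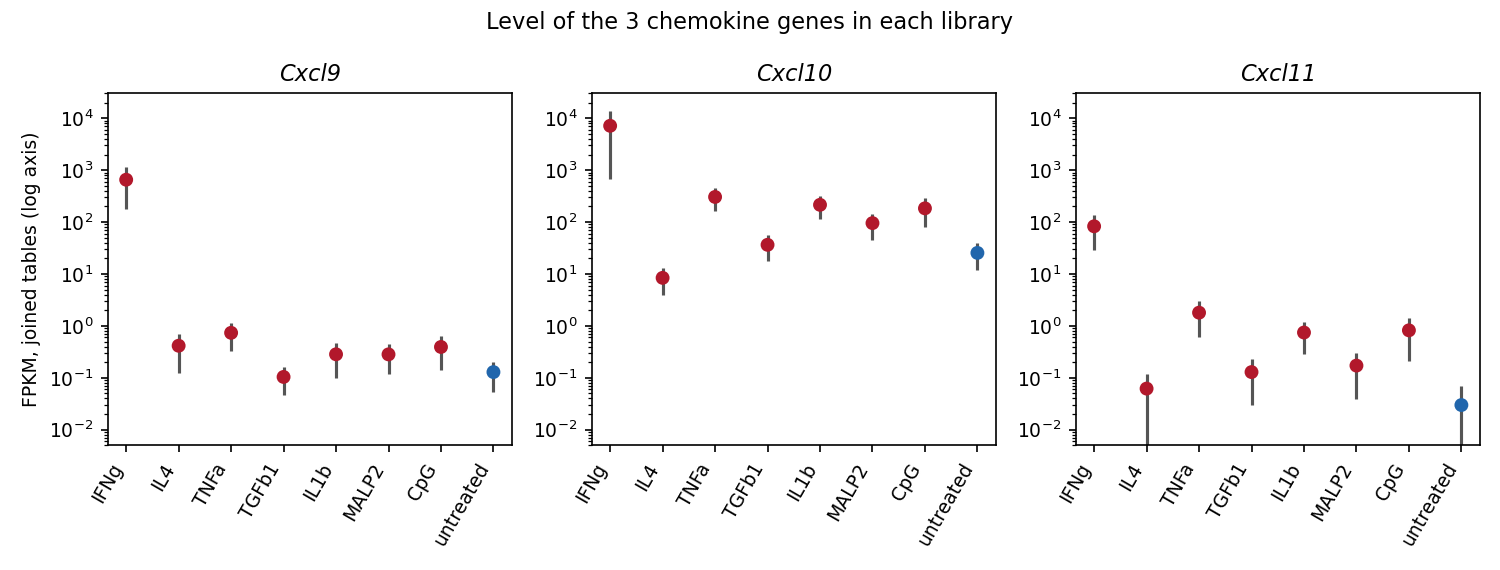
FPKM of Cxcl9, Cxcl10 and Cxcl11 (log axis) in each of the 8 libraries, with the 7 tables joined on 1 scale. Points are single libraries, red for stimulated and blue for untreated, and bars are the authors' confidence bounds, drawn to the axis limit where the lower bound is 0 or below the axis. The IFNg library stands at 655, 7163.2 and 83.0 FPKM, far above the other libraries in each panel, and IL4 is the lowest library for Cxcl10 at 8.43 FPKM.

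After IL4 the resting level of Cxcl10 was lower and the other genes stayed under 1 FPKM. Cxcl10 was at 9.29 FPKM (4.43 to 14.2) after IL4, against 28.1 FPKM (14.0 to 42.1) in untreated cells. Its log2 change was -1.50, 2.82-fold lower on the FPKM + 1 scale and 623rd from the lowest among 12908 compared genes. The bounds of the 2 libraries overlapped narrowly, and the authors' deposited table called the difference with a q-value of 0.0177, beside 17.4% of the genes it tested. Cxcl10 was thus the 1 member counted lower, beside 11.9% of all compared genes, and 0 members were counted higher, beside 9.86%. Cxcl9 was at 0.458 FPKM (0.137 to 0.778) after IL4, against 0.142 FPKM (0.0650 to 0.219) in untreated cells. Its log2 change of 0.35 was under the 1 FPKM floor and its bounds overlapped, whereas the authors' deposited table called it with a q-value of 0.0483. Cxcl11 was at 0.0684 FPKM (0.00406 to 0.133) after IL4, against 0.0329 FPKM (0 to 0.0767) in untreated cells, and the authors' deposited table did not test it.

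TNFa gave the highest level of each gene among the stimuli other than IFNg. With the tables joined on 1 scale, however, its bounds overlapped those of IL1b and CpG for each gene. For Cxcl9 they also overlapped those of IL4 and MALP2. Cxcl10 was at 324 FPKM (169 to 478) after TNFa, against 27.0 FPKM (13.9 to 40.0) in untreated cells. Cxcl11 was at 1.91 FPKM (0.647 to 3.18) after TNFa, against 0.0316 FPKM (0 to 0.0738) in untreated cells. Cxcl9 was at 0.780 FPKM (0.353 to 1.21) after TNFa, against 0.137 FPKM (0.0642 to 0.209) in untreated cells. Between TNFa and untreated cells the bounds lay apart for each of the 3 genes. Of all compared genes, 6.36% had bounds apart on the higher side, a share that leaves out genes under the 1 FPKM floor such as Cxcl9. The log2 changes were 3.54 for Cxcl10 (11.6-fold), 1.50 for Cxcl11 (2.82-fold) and 0.65 for Cxcl9. Only 2 members passed the 1 FPKM floor, Cxcl10 and Cxcl11, and both were counted higher, beside 8.92% of all compared genes. Cxcl11 passed the floor only through the TNFa library, so it could not have been counted lower. Cxcl10 had the 85th highest change of 12825 genes and Cxcl11 the 555th. The authors' deposited table gave q-values of 1.97e-11 for Cxcl10, 1.12e-06 for Cxcl11 and 0.000101 for Cxcl9, and called 16.2% of the genes it tested.

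IL1b, which like TNFa is known to signal to NF-kB, also gave a higher level of Cxcl10. Cxcl10 was at 231 FPKM (122 to 340) after IL1b, against 27.3 FPKM (15.3 to 39.3) in untreated cells. Its log2 change was 3.03, 8.18-fold and the 92nd highest of 12768 compared genes, with bounds apart. It was the 1 member past the floor and was counted higher, beside 7.29% of all compared genes. Cxcl11 was at 0.801 FPKM (0.304 to 1.30) after IL1b, against 0.0320 FPKM in untreated cells, and Cxcl9 was at 0.305 FPKM (0.107 to 0.502) after IL1b, against 0.138 FPKM in untreated cells. For Cxcl11 the bounds lay apart, so that 2 members had bounds apart on the higher side, beside 5.83% of all compared genes. That share leaves out genes under the floor, as Cxcl11 was. The authors' deposited table called Cxcl10 with a q-value of 2.58e-09 and Cxcl11 with a q-value of 0.000233, beside 15.5% of the genes it tested, and did not call Cxcl9, with a q-value of 0.215.

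The Toll-like receptor agonists MALP2 and CpG also gave more Cxcl10 RNA than untreated cells had. MALP2 acts on the lipopeptide receptor TLR2 and CpG DNA on the endosomal receptor TLR9. Cxcl10 was at 99.4 FPKM (47.5 to 151) after MALP2, against 26.5 FPKM (13.1 to 39.9) in untreated cells. It was at 191 FPKM (83.6 to 298) after CpG, against 26.5 FPKM (13.2 to 39.7) in untreated cells. The bounds lay apart in both comparisons. The log2 changes were 1.87 after MALP2 (3.65-fold, 404th of 12722 genes) and 2.80 after CpG (6.98-fold, 203rd of 12769 genes). Cxcl10 was the 1 member past the floor and counted higher in each, beside 9.53% of all compared genes after MALP2 and 9.43% after CpG. The authors' deposited table gave Cxcl10 q-values of 0.00318 after MALP2 and 4.27e-06 after CpG, and called 16.0% of the genes it tested after MALP2 and 16.6% after CpG. On the joined scale the level after CpG was 1.92 times that after MALP2, with overlapping bounds.

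Cxcl11 was at 0.179 FPKM (0.0412 to 0.316) after MALP2, against 0.0311 FPKM in untreated cells. It was at 0.854 FPKM (0.220 to 1.49) after CpG, against 0.0310 FPKM in untreated cells. Its bounds lay apart after CpG and overlapped after MALP2. Members with bounds apart on the higher side were thus 1 after MALP2, beside 5.67% of all compared genes, and 2 after CpG, beside 6.14%. These shares leave out genes under the floor, as Cxcl11 was. Cxcl9 was at 0.294 FPKM (0.122 to 0.466) after MALP2 and at 0.408 FPKM (0.149 to 0.667) after CpG, against 0.134 FPKM in untreated cells of both tables. The bounds overlapped in both, and the authors' deposited table called neither, with q-values of 0.193 after MALP2 and 0.0504 after CpG. The same table called Cxcl11 after CpG with a q-value of 0.000232 and did not test it after MALP2.

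No member reached 2-fold on the FPKM + 1 scale after TGFb1. Cxcl10 was at 39.8 FPKM (19.2 to 60.4) after TGFb1, against 27.8 FPKM (15.5 to 40.0) in untreated cells, a log2 change of 0.50 with overlapping bounds and a q-value of 0.572 in the authors' deposited table, which called 16.0% of the genes it tested. Cxcl9 was at 0.113 FPKM (0.0511 to 0.175) after TGFb1, against 0.141 FPKM (0.0676 to 0.214) in untreated cells. Cxcl11 was at 0.141 FPKM (0.0333 to 0.248) after TGFb1, against 0.0326 FPKM in untreated cells. The bounds overlapped for each gene, and 0 members were counted, beside 7.15% of all compared genes higher and 9.15% lower. A difference smaller than these bounds was not detectable with 1 library of each kind.

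**Figure D2:**
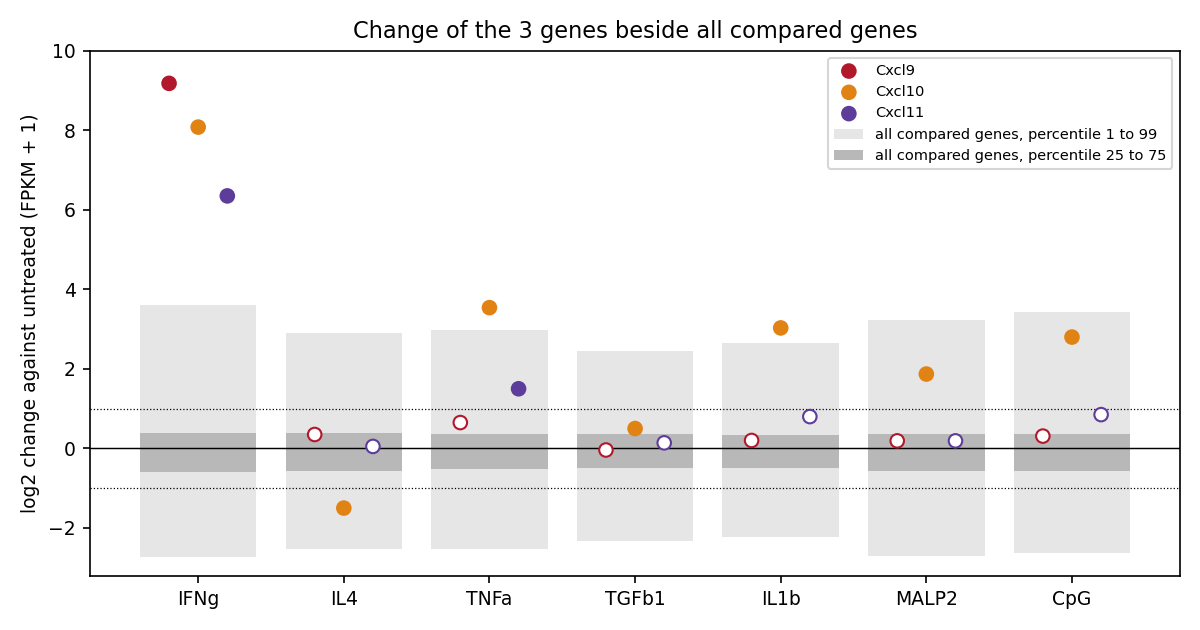
Change against untreated, as log2 of FPKM + 1, for the 3 genes and each stimulus. Open circles mark genes under 1 FPKM in both libraries, grey bars span percentiles 1 to 99 (light) and 25 to 75 (dark) of all compared genes, and dotted lines mark 2-fold. Cxcl10 lies above the light bar after IFNg, TNFa and IL1b, within it after MALP2 and CpG, and at -1.50 after IL4.

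Over the 21 member comparisons, 9 were counted as changed, 8 higher and 1 lower. In a comparison, 7.15% to 10.7% of all compared genes were counted higher. Counted lower were 12.7% after IFNg, 11.9% after IL4, 10.4% after TNFa, 9.15% after TGFb1, 8.57% after IL1b, 11.7% after MALP2 and 11.2% after CpG. Cxcl10 passed the floor in 7 of 7 comparisons and was higher in 5 and lower in 1. Cxcl9 passed the floor in 1 of 7 comparisons, IFNg, and Cxcl11 in 2 of 7, IFNg and TNFa. In each of these the untreated value of Cxcl9 or Cxcl11 was under the floor, so only a higher count was possible. The median log2 change of the 3 members was 8.08 after IFNg, 0.05 after IL4, 1.50 after TNFa, 0.14 after TGFb1, 0.80 after IL1b, 0.19 after MALP2 and 0.85 after CpG, beside medians of -0.12 to -0.08 over all compared genes. These member medians include genes under the floor and describe 3 genes only.

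The 7 tables differ by 1 constant factor each in their untreated values, so levels could be set on a joined scale, that of the IFNg table. Cxcl9 was at 655 FPKM after IFNg, 0.736 after TNFa, 0.415 after IL4, 0.393 after CpG, 0.284 after IL1b, 0.283 after MALP2 and 0.104 after TGFb1, against 0.129 in untreated cells. In this order untreated cells lie between MALP2 and TGFb1, and only the step between TNFa and IFNg, 890-fold on plain FPKM, separated neighbours beyond their bounds. Without the IFNg library the level of Cxcl9 varied 7.10-fold, and 9 of the 28 pairs of libraries had bounds apart. Cxcl9 was therefore a gene with a single high library.

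Cxcl10 was graded over the stimuli. On the joined scale it was at 7163.2 FPKM after IFNg, 305 (160 to 451) after TNFa, 215 (113 to 317) after IL1b, 184 (80.5 to 287) after CpG, 95.6 (45.7 to 145) after MALP2, 36.5 (17.6 to 55.3) after TGFb1 and 8.43 (4.02 to 12.8) after IL4, against 25.5 (11.8 to 39.2) in untreated cells. Untreated cells lie between TGFb1 and IL4, and neighbours in this order overlapped except TNFa and IFNg, which differed 23.5-fold. Over longer steps more libraries separated, and 20 of the 28 pairs had bounds apart. TNFa lay 3.19-fold above MALP2 with bounds apart, and IL4 was separated from every other stimulated library. Without the IFNg library Cxcl10 varied 36.2-fold.

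Cxcl11 was at 83.0 FPKM after IFNg, 1.80 after TNFa, 0.822 after CpG, 0.746 after IL1b, 0.172 after MALP2, 0.129 after TGFb1 and 0.0620 after IL4, against 0.0299 in untreated cells, the lowest library. Again only TNFa and IFNg separated as neighbours, by 46.0-fold, and 16 of the 28 pairs had bounds apart. Its untreated upper bound lay 1.33 times the value above it, with the lower bound at 0, between the 1.41 of a gene with 2 reads and the 1.15 of a gene with 3 reads in the same table. Ratios to the untreated level of Cxcl11 thus rest on a few reads. Set against the median of the other 6 stimulated libraries, the log2 changes after IFNg were 8.94 for Cxcl9, 5.67 for Cxcl10 and 5.85 for Cxcl11.

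FPKM is per length, so the 3 genes can be set beside each other within a library. Cxcl10 made up 90.7% of their summed FPKM after IFNg and 94.6% after IL4, 99.2% to 99.5% after the other 5 stimuli, and 99.4% in untreated cells. Cxcl9 made up 8.29% (1.26% to 61.6% as far as the bounds of the genes allow) after IFNg and 4.66% (0.951% to 14.9%) after IL4, against 0.503% (0.136% to 1.71%) in untreated cells. The share of Cxcl9 was 0.131% to 0.294% after the other 5 stimuli. Cxcl10 was 10.9 times Cxcl9 after IFNg, 20.3 times after IL4, 415 times after TNFa and 757 times after IL1b, against 197 times in untreated cells. The high share of Cxcl9 thus met with the highest summed level of the genes, 7901.4 FPKM after IFNg, and with the lowest, 8.91 FPKM after IL4. For both stimuli the range that the bounds allow overlaps that of untreated cells. Cxcl11 made up 1.05% (0.196% to 13.8%) after IFNg, against 0.117% (0% to 0.585%) in untreated cells.

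**Figure D3:**
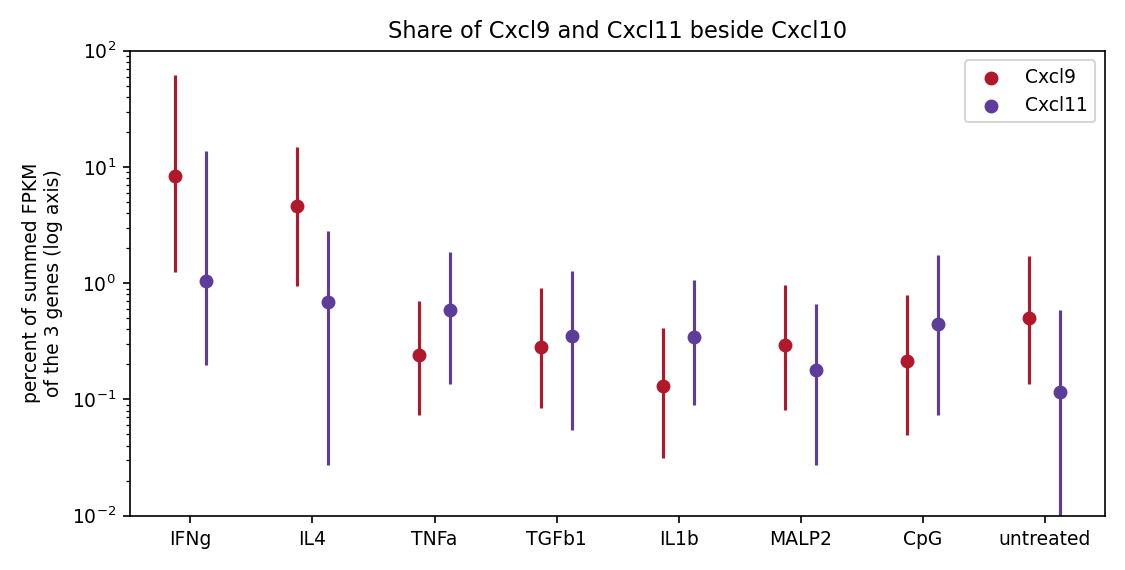
Percent of the summed FPKM of the 3 genes (log axis) that Cxcl9 (red) and Cxcl11 (purple) made up in each library, with Cxcl10 the remainder. Bars span the lowest and highest share that the authors' bounds allow. Cxcl9 stands at 8.29% after IFNg and 4.66% after IL4, against 0.503% in untreated cells.

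The genes around the cluster were examined in their order on the chromosome, which is Ppef2, Naaa, Sdad1, Cxcl9, Art3, Cxcl10, Cxcl11, Nup54 and Scarb2. After IFNg 2 of the 4 neighbours that passed the floor were higher, beside 10.7% of all compared genes. Their changes were smaller than those of the chemokines. Naaa, which encodes a lysosomal amidase, was at 126 FPKM (67.9 to 184) after IFNg, against 24.0 FPKM (12.5 to 35.4) in untreated cells, a log2 change of 2.35. Sdad1, a gene of ribosome biogenesis, was at 24.5 FPKM after IFNg, against 6.01 FPKM in untreated cells, a log2 change of 1.86 with overlapping bounds. Nup54, a nuclear pore gene next to Cxcl11, was at 9.53 FPKM after IFNg, against 5.17 FPKM in untreated cells, and Scarb2, a lysosomal membrane receptor gene, at 71.3 FPKM after IFNg, against 104 FPKM in untreated cells. Neither reached 2-fold. Naaa was lower after TGFb1 (log2 change -1.28) and IL1b (-1.20), Sdad1 was also higher after IL4 (1.12), and Scarb2 was lower after MALP2 (-1.19) and CpG (-1.22). Cxcl10 was higher after TNFa, IL1b, MALP2 and CpG, and 0 of the 4 compared neighbours was higher after any of those. Of all compared genes, 7.29% to 9.53% were higher after those stimuli, so a count of 0 among 4 genes does not set the neighbours apart. Log2 changes after those stimuli were 0.68 to 0.89 for Sdad1 and 0.67 to 0.83 for Nup54, and negative for Naaa and Scarb2. Ppef2 and Art3 stayed under 1 FPKM.

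**Figure D4:**
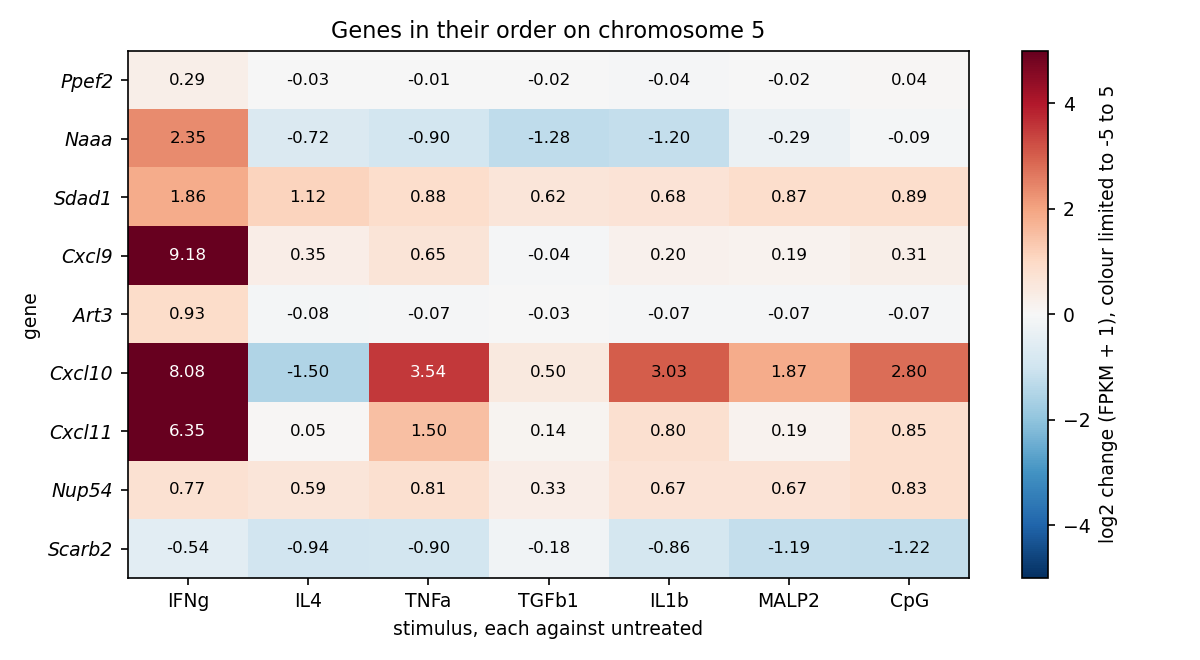
Change against untreated, as log2 of FPKM + 1, for the genes of the cluster and its neighbours in chromosome order (rows) and for each stimulus (columns), with values printed and colour limited to -5 to 5. The 3 chemokine genes reach 9.18, 8.08 and 6.35 after IFNg, and the highest neighbour, Naaa, 2.35.

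Cxcr3 RNA was lower in stimulated than in untreated macrophages. Cxcr3, the receptor gene itself, was at 0.565 FPKM (0.123 to 1.01) after IFNg, against 5.84 FPKM (2.03 to 9.65) in untreated cells, with bounds apart and a log2 change of -2.13. On the joined scale it was at 1.39 FPKM after IL4, 1.06 after TNFa, 1.26 after TGFb1, 1.31 after IL1b, 2.53 after MALP2 and 2.65 after CpG. Cxcr3 was thus below the untreated level in all 7 stimulated libraries and counted lower in 5, with MALP2 (log2 change -0.96) and CpG (-0.91) short of 2-fold. The summed B cell markers were likewise lower in all 7 stimulated libraries (15.8 to 30.8 FPKM) than in untreated cells (125 FPKM), and their part in the Cxcr3 values was not tested. The atypical receptor gene Ackr1 was listed at 0 in all 8 libraries, Ackr2 reached at most 0.0311 FPKM and Ackr3, whose product binds CXCL11, at most 0.407 FPKM. Dpp4, the protease that trims these chemokines at their amino end, lay between 0.0231 and 0.388 FPKM. Pf4, a platelet chemokine gene on the list, was counted higher in 4 comparisons and was highest after MALP2, at 152 FPKM (60.5 to 243), against 45.1 FPKM (17.4 to 72.7) in untreated cells, with overlapping bounds.

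Cxcl1, Cxcl2 and Cxcl3, whose products attract neutrophils through another receptor, were taken as the comparison family. Cxcl2 was at 17.2 FPKM (5.96 to 28.4) after IFNg, against 1.93 FPKM (0.544 to 3.32) in untreated cells, and on the joined scale it reached 71.6 FPKM after TNFa, 88.7 after IL1b, 314 after CpG and 507 after MALP2. Cxcl1 was likewise highest after MALP2, at 144 FPKM, and Cxcl3 after CpG, at 112 FPKM. After IFNg they were at 2.09 FPKM for Cxcl1 and 1.33 FPKM for Cxcl3, against 0.637 FPKM for Cxcl1 and 0.241 FPKM for Cxcl3 in untreated cells. IFNg was thus the highest library for each CXCR3 ligand and not for any of these 3. Among the other CXC genes it was also the highest for Cxcl16 and, chosen after its values were seen, for Cxcl12 at 2.33 FPKM. The same held for some CC genes, given below. Cxcl14, a chemokine of epithelia and monocytes, was higher in 7 of 7 comparisons, most after TGFb1, at 188 FPKM (93.4 to 283), against 3.38 FPKM (1.44 to 5.32) in untreated cells. Cxcl16, a membrane-bound chemokine that binds CXCR6, was at 460 FPKM (291 to 630) after IFNg, against 135 FPKM (86.5 to 183) in untreated cells, and at 61.6 FPKM (41.0 to 82.1) after IL4, against 149 FPKM (100 to 197) in untreated cells. Cxcl16, like Cxcl10, was thus higher after IFNg and lower after IL4. Of the 12 other CXC genes listed, 3 of 7 compared were higher after IFNg (median log2 change 0.91), and 7 of 8 were higher after MALP2 (2.61) and after CpG (2.30). Of all compared genes, 10.7% were higher after IFNg, 9.53% after MALP2 and 9.43% after CpG.

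Among 16 CC and related chemokine genes, 8 of 12 compared were higher after IFNg and 1 lower, with a median log2 change of 1.68. Of all compared genes, 10.7% were higher and 12.7% lower. On the joined scale IFNg was the highest library for Ccl12, at 992 FPKM, followed by IL4 at 126 FPKM. The same held for Ccl8 and Ccl11, named here after their values were seen. Ccl8 was at 91.3 FPKM after IFNg, followed by CpG at 7.00 FPKM, and Ccl11 was at 0.767 FPKM after IFNg. The monocyte attractants Ccl7 and Ccl2 were higher in 7 of 7 comparisons. Ccl7 was at 716 FPKM (232 to 1200.1) after IFNg, against 4.27 FPKM (1.16 to 7.38) in untreated cells, and at 1025.7 FPKM after IL4, against 4.71 FPKM in untreated cells. The IL4 culture therefore held less Cxcl10 RNA and more Ccl7 RNA than the untreated one. Ccl5, a T cell attractant, was, like Cxcl10, lower after IL4, at 6.56 FPKM (2.06 to 11.1) after IL4, against 24.2 FPKM (8.97 to 39.4) in untreated cells, and was highest after CpG, at 780 FPKM, against 22.8 FPKM in untreated cells.

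Genes of interferon signalling and response were set beside the members by list. Of 20 interferon-stimulated effector genes, 17 were higher after IFNg and 0 lower, with a median log2 change of 1.61, while 0 were higher and 17 lower after IL4, with a median of -2.08. The IL4 library thus had lower Cxcl10 together with most of this antiviral list. Mx1, an antiviral GTPase, was at 5.14 FPKM (3.75 to 6.53) after IL4, against 19.3 FPKM (14.2 to 24.4) in untreated cells. After TGFb1 11 of the 20 were lower and 0 higher (median -1.16), whereas Cxcl10 had a log2 change of 0.50. After TNFa 4 were higher and 1 lower (median 0.09), after IL1b 0 and 4 (-0.37), after MALP2 0 and 6 (-0.58) and after CpG 0 and 1 (0.11). Of all compared genes, 10.7% were higher and 12.7% lower after IFNg, 9.86% and 11.9% after IL4, and 7.15% and 9.15% after TGFb1. The shares were 8.92% higher and 10.4% lower after TNFa, 7.29% and 8.57% after IL1b, 9.53% and 11.7% after MALP2 and 9.43% and 11.2% after CpG. Cxcl10 was counted higher after each of these 4 stimuli, in which the median of the effector list lay between -0.58 and 0.11.

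The GTPase genes typical of interferon gamma, with 9 of 11 listed genes in the tables, were all higher after IFNg (9 of 9 compared, median log2 change 5.18). Gbp2, a guanylate-binding protein gene, was at 4318.0 FPKM after IFNg, against 22.9 FPKM in untreated cells, and at 65.9 FPKM after TNFa, against 24.2 FPKM in untreated cells. After IL4 5 of 7 compared GTPase genes were lower (median -1.20), and after IL1b 0 of 7 were counted in either direction. Of all compared genes, 10.7% were higher and 12.7% lower after IFNg, 9.86% and 11.9% after IL4, and 7.29% and 8.57% after IL1b. A count of 0 among 7 genes after IL1b lies near those shares. Of 17 genes of interferon signalling, 9 were higher and 1 lower after IFNg. Irf1, a factor that binds ISRE letters, was at 1650.3 FPKM (806 to 2494.2) after IFNg, against 75.8 FPKM (47.6 to 104) in untreated cells, and at 29.0 FPKM after IL4, against 83.5 FPKM in untreated cells. After TNFa Irf1 was at 79.4 FPKM, against 80.3 FPKM in untreated cells, where Cxcl10 was 11.6-fold higher. Socs1, a feedback inhibitor of Janus kinases, was higher both after IFNg (log2 change 7.17) and after IL4 (5.65). Among 12 interferons and their inducing factors, 7 of 10 compared were higher after IFNg and 0 lower, and 3 of 7 lower after IL4. Ifnb1, the interferon beta gene, named here after its values were seen, was at 1.85 FPKM (0.412 to 3.29) after IFNg and at most 0.222 FPKM after any other stimulus, against 0.0497 FPKM (0 to 0.120) in untreated cells of the IFNg table.

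Genes of the NF-kB factors and their feedback inhibitors were in part higher after each of the 5 stimuli in which Cxcl10 was counted higher. Of 12 listed genes, 9 of 12 compared were higher after IFNg (median log2 change 1.66), 6 of 11 after TNFa (1.35), 9 of 12 after IL1b (1.51), 10 of 12 after MALP2 (2.0) and 11 of 12 after CpG (2.35), and 0 were lower after these stimuli. Of all compared genes, 10.7% were higher after IFNg, 8.92% after TNFa, 7.29% after IL1b, 9.53% after MALP2 and 9.43% after CpG. After IL4 2 were higher and 4 lower (-0.62), and after TGFb1 1 was higher and 0 lower (-0.13). Of all compared genes, 9.86% were higher and 11.9% lower after IL4, and 7.15% and 9.15% after TGFb1. The higher counts of the list after these 2 stimuli lie near those shares. Within the list the feedback gene Nfkbie was at 131 FPKM after IFNg, against 8.63 FPKM in untreated cells, and at 92.9 FPKM after TNFa, against 9.14 FPKM in untreated cells. Tnfaip3, which encodes the inhibitor A20, was higher in 7 of 7 comparisons, with log2 changes of 4.63 after IFNg, 1.31 after IL4, 3.50 after TNFa, 1.02 after TGFb1, 3.04 after IL1b, 4.43 after MALP2 and 4.93 after CpG. The order of sizes differed from that of Cxcl10, which was higher after TNFa (3.54) and IL1b (3.03) than after MALP2 (1.87).

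**Figure D5:**
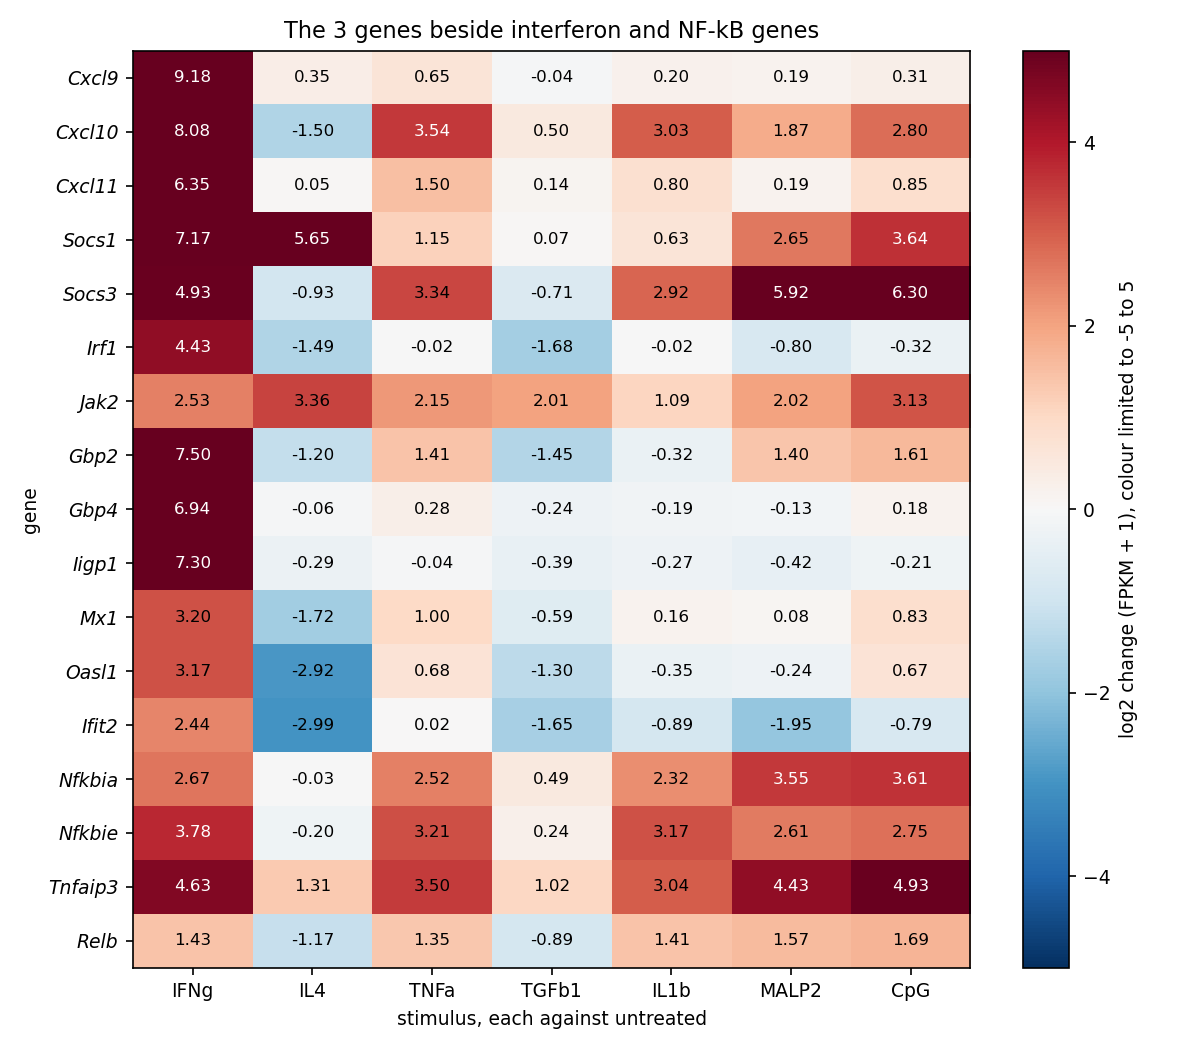
Change against untreated, as log2 of FPKM + 1, for the 3 chemokine genes and for genes of interferon signalling, GTPases, antiviral effectors and NF-kB feedback (rows), by stimulus (columns), with values printed and colour limited to -5 to 5. Cxcl10 has the negative IL4 value (-1.50) of Irf1 (-1.49) and Mx1 (-1.72), and after TNFa the positive value (3.54) of Nfkbie (3.21). The lists do not part cleanly by stimulus. The NF-kB gene Relb was also lower after IL4 (-1.17), Socs1 was higher after IL4, and Mx1 was higher after TNFa (1.00).

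The genes most like each member were sought by Pearson correlation of log2(FPKM + 1) over the 8 joined libraries among 1889 genes. The points share 1 IFNg library that is far from the rest, so these coefficients describe mainly that library, and genes are not independent replicates. Gbp4, another guanylate-binding protein gene, was closest to Cxcl9 (r = 0.999), at 152 FPKM after IFNg and at most 0.495 FPKM after any other stimulus, against 0.242 FPKM in untreated cells. It was followed by BC023105, Snord35b, Gm15175 and Snord49b (each r = 0.998), of which Snord35b, Gm15175 and Snord49b were listed at 0 in the other 7 libraries. In all, 24 genes reached an r of 0.99 with Cxcl9. For Cxcl10 the closest genes were Parp3 (0.975), Mx1 (0.965), Cd69 (0.962), Daxx (0.957) and Ifi211 (0.954). Parp3, a DNA damage response gene, was at 118 FPKM after IFNg, against 25.7 FPKM in untreated cells, and at 16.0 FPKM after IL4, against 28.3 FPKM in untreated cells. Cd69, an activation marker of lymphocytes, was at 63.6 FPKM after IFNg, against 0.474 FPKM in untreated cells, and was also counted higher after TNFa, IL1b, MALP2 and CpG. For Cxcl11 the closest were Mlkl (0.987), Cxcl9 (0.982), Gm17334, Tnfsf10 and Gbp4 (each 0.981). Mlkl, the executor of necroptosis, was at 142 FPKM after IFNg, against 16.2 FPKM in untreated cells. Between members r was 0.98 for Cxcl9 with Cxcl11, 0.90 for Cxcl10 with Cxcl11 and 0.82 for Cxcl9 with Cxcl10. Without the IFNg library 0 of the 5 closest genes remained for any member.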

How the data were processed

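The submitters' processing notes name TopHat 1.3.1, Cufflinks 1.2.1, Cuffdiff 1.2.1 and the mm9 build for the 8 poly(A) RNA libraries. The deposited files are 7 pairs of tables, 1 pair for each stimulus with the untreated library, which give FPKM with confidence bounds and a status per gene, and the p-value, q-value and significance call of the authors' own comparison, per the file headers. The authors' log2 fold columns were not used. The highest q-value among the authors' calls was 0.050. Values of each stimulus were compared with the untreated values of the same table as log2 of FPKM + 1, at 1 FPKM or more in either library, status OK in both and a difference of at least 2-fold. Lines with another status numbered 336 to 388 in a table.

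FPKM carries no read total, so absolute depth is unknown. In the untreated library 646 genes had an upper bound 2.00 times their value above it, with the lower bound cut at 0, which is the width of a count of 1 read, and these lines gave the relative worth of a read. Bounds cover the authors' model of 1 library and no variation between cultures. Tables were joined by 1 factor each (0.9075 to 1.0000), identical over 12259 untreated genes.

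The members and gene lists were chosen with earlier results of these data known. Named genes are all of the receptor and neighbour lists, from other lists up to 4 genes past 2-fold in most comparisons and up to 3 with the largest change after IFNg, and the 5 genes of most like pattern for each member. Like patterns were sought among genes with a range of at least 2 (log2) over the libraries. A comparison of the proteins was planned and not run. Calculations used Python 3.11.15, numpy 2.4.6 and pandas 2.3.3, and the counting script was tested on simulated data.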

Additional observations from a re-analysis of the deposited data

Results flagged for a closer look

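Opposite directions after 2 stimuli, both set against the same untreated library, drew attention to 20 of 63 named genes. With 1 library of each kind, none of these differences was tested, and values are log2 changes of FPKM + 1. Cxcl10 was 8.08 after IFNg and -1.50 after IL4. Among other chemokine genes, Cxcl16 was 1.76 after IFNg and -1.26 after IL4, and Ccl5 was 5.04 after CpG and -1.74 after IL4. The neighbour Naaa was 2.35 after IFNg and -1.28 after TGFb1.

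Among interferon and NF-kB regulators, Irf1 was 4.43 after IFNg and -1.68 after TGFb1, Irf7 was 1.24 after IFNg and -2.26 after TGFb1, and Il18 was 1.95 after IFNg and -1.04 after IL4. Ikbke was 1.99 after MALP2 and -1.32 after TGFb1, and Relb was 1.69 after CpG and -1.17 after IL4. Among antiviral genes the values after IFNg and IL4 were 1.06 and -2.51 for Oas3, 1.30 and -2.12 for Ifi44, 1.13 and -2.66 for Oasl2, 2.44 and -2.99 for Ifit2, 3.20 and -1.72 for Mx1, and 3.17 and -2.92 for Oasl1. Zbp1 was 2.70 after IFNg and -1.72 after TGFb1. Among GTPase genes, Gbp2 was 7.50 after IFNg and -1.45 after TGFb1, Gbp3 was 5.45 after IFNg and -1.08 after TGFb1, Irgm2 was 2.71 after IFNg and -1.69 after IL4, and Tgtp1 was 5.18 after IFNg and -1.62 after IL4.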

How the results depend on the processing

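No paired analysis was possible because each group holds 1 library. Of 168 member changes under alternatives, 155 kept their side of the 2-fold rule, with the same direction where they were counted. All 3 changes after IFNg did so under every alternative run, though with a pseudocount of 0.1 FPKM Cxcl11 (9.32) passed Cxcl10 (8.13). Direction was not compared for changes short of 2-fold, and some of these turned. Cxcl11 after IL4 went from 0.05 to -0.75 against the median of the other 6 stimulated libraries. For changes not counted, the higher floor, the authors' call and bounds apart could only leave them uncounted. For genes under the 1 FPKM floor, so could the pseudocount of 0.1 FPKM and centring on the median gene, which kept that floor. Dropping the floor alone could change no outcome, since values under 1 FPKM in both libraries cannot differ 2-fold on FPKM + 1. The 155 thus include outcomes that were fixed in advance. Of 70 counts of all genes, 68 stayed within 1.5 times the main count. Among these, the 14 without a floor could not differ from the main count, for the same reason. Shares vary as widely as the authors' bounds allow, for Cxcl9 after IFNg between 1.26% and 61.6%. With a pseudocount of 0.1 FPKM and no floor together, chosen after seeing the data, Cxcl9 passed 2-fold after IL4 (1.20), TNFa (1.89) and CpG (1.12), and Cxcl11 after IL1b (2.77), MALP2 (1.09) and CpG (2.86), since low genes are compressed less. Cxcl10 after IL4 (-1.50) was lost where bounds had to lie apart, and Cxcl11 after TNFa (1.50) under a floor of 5 FPKM. Against the median of the other 6 stimulated libraries, Cxcl10 turned to -2.42 after TGFb1 and -1.05 after MALP2, and fell short of 2-fold after IL1b (0.62) and CpG (0.24), as did Cxcl11 after TNFa (0.94), by the change of what they were set against. With the authors' call added, genes lower after IFNg numbered 1073 in place of 1623, and genes higher after MALP2 806 in place of 1212. Of the 5 genes most like each member, Spearman's correlation shared 0 for Cxcl9, 1 for Cxcl10 and 0 for Cxcl11, a pseudocount of 0.1 FPKM shared 3, 4 and 1 in that order, and without the IFNg library 0 were shared for each. With 1 library a group, differences within the bounds were not detectable.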
